A study of Mus musculus with 10 samples.

Results

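The actin cytoskeleton and focal adhesion genes described here are 45 named genes, chosen by symbol, of the 29657 genes in a liver RNA-seq table; all 45 were found. They encode integrins, the proteins of the adhesion plaque, actin crosslinkers, nonmuscle myosin and tropomyosins, membrane linkers, small GTPases with their kinases, and the machinery that assembles actin filaments. In the livers of mice given AAV8-TBG-galectin-3, 17 of the 44 members that could be tested were lower and 0 were higher than in livers of mice given AAV8-NC (limma, adjusted p under 0.05 over all tested genes). Over all 13471 genes tested, 9.65% were lower and 7.13% higher. The list was drawn up with earlier results from these same libraries known, so these shares describe the members, and no statement about the list as a whole is drawn from them.

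Vinculin, encoded by Vcl, changed most, to less than the level of any control liver in each of the 5 mice, and the other members called lower with a log2 fold change of -0.50 or beyond were the nonmuscle myosin genes Myh10 and Myh9, the caldesmon gene Cald1, the tropomyosin genes Tpm3 and Tpm4 and the integrin gene Itgb1. Talin 1, profilin 1 and cofilin 1, which work beside these proteins, did not pass the test.

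All 10 mice were C57BL/6 and were kept for 8 weeks on CDAHFD, a choline-deficient, high-fat diet that makes the liver fatty, inflamed and fibrotic. The vector AAV8-TBG-galectin-3 was injected intravenously into 5 mice, whose genotype label is a hepatocyte-specific knockdown of galectin-3. TBG is a hepatocyte promoter; what the vector carries behind it is not described in the labels. The other 5 mice, labelled wild type, received the control vector AAV8-NC by the same route. Each library is whole liver from 1 mouse, the 5 mice of a group are its replicates, and age and sex are not stated in the labels.

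Values are FPKM, a measure of fragments corrected for the length of the transcript and the size of the library, so levels of different genes can be set side by side. The number of reads behind each value is not given, and the precision is that of the spread between 5 mice. Each library had 21653 to 23079 genes above 0. Lgals3, which encodes galectin-3, stood at 67.4, 90.8, 85.2, 85.6 and 41.9 FPKM in AAV8-TBG-galectin-3 livers, against 105, 73.9, 61.6, 71.0 and 42.2 FPKM in AAV8-NC livers (limma adjusted p = 0.856). A lower level of the targeted transcript was thus not seen in whole liver, and each direction below rests on the labels; the groups are named by their vectors. The FPKM of a gene also moved with its transcript length in a way that differed between the groups, and the values after removal of that trend are given with the account of transcript length, and beside a named gene where its call was lost.

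Focal adhesions are the sites where cells hold the extracellular matrix. Integrins cross the membrane as pairs of an alpha and a beta subunit, bind matrix outside the cell, and are tied inside it by talin, vinculin and their partners to actin bundles, which nonmuscle myosin II pulls on under the control of the GTPase RhoA and its kinases ROCK1 and ROCK2. In the liver this machinery is known from the contraction of stellate cells and of the bile canaliculi between hepatocytes, and from the attachment of endothelial and inflammatory cells.

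Of the 44 tested members, 40 had a negative and 4 a positive log2 fold change, and their median was -0.32, against -0.04 over all tested genes (fold changes are AAV8-TBG-galectin-3 over AAV8-NC, of log2(FPKM + 1), so that changes of low genes are understated). The 17 members called lower had fold changes between -0.86 and -0.25, and every one of them was below the AAV8-NC mean in 5 of 5 AAV8-TBG-galectin-3 livers. That position follows in part from the calls, which were made on the same values. Of the 44 tested members, 13 were lower without overlap of the groups, all of them among these 17, and 0 were higher without overlap. Of all tested genes, 7.48% were lower and 5.66% higher without overlap. In whole liver, fewer cells of a type and less RNA per cell cannot be told apart. The count of 17 became 26 without AAV8-TBG-galectin-3 mouse 4, where 12.9% of all tested genes were lower. It became 11 without AAV8-NC mouse 3, where 4.71% were lower. The calls of 11 members held whichever of the 10 libraries was left out. Only Tln2, the gene of the second talin, was too low to test, at 0.338 to 0.413 FPKM in AAV8-TBG-galectin-3 livers and 0.277 to 0.489 FPKM in AAV8-NC livers.

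**Figure D1:**
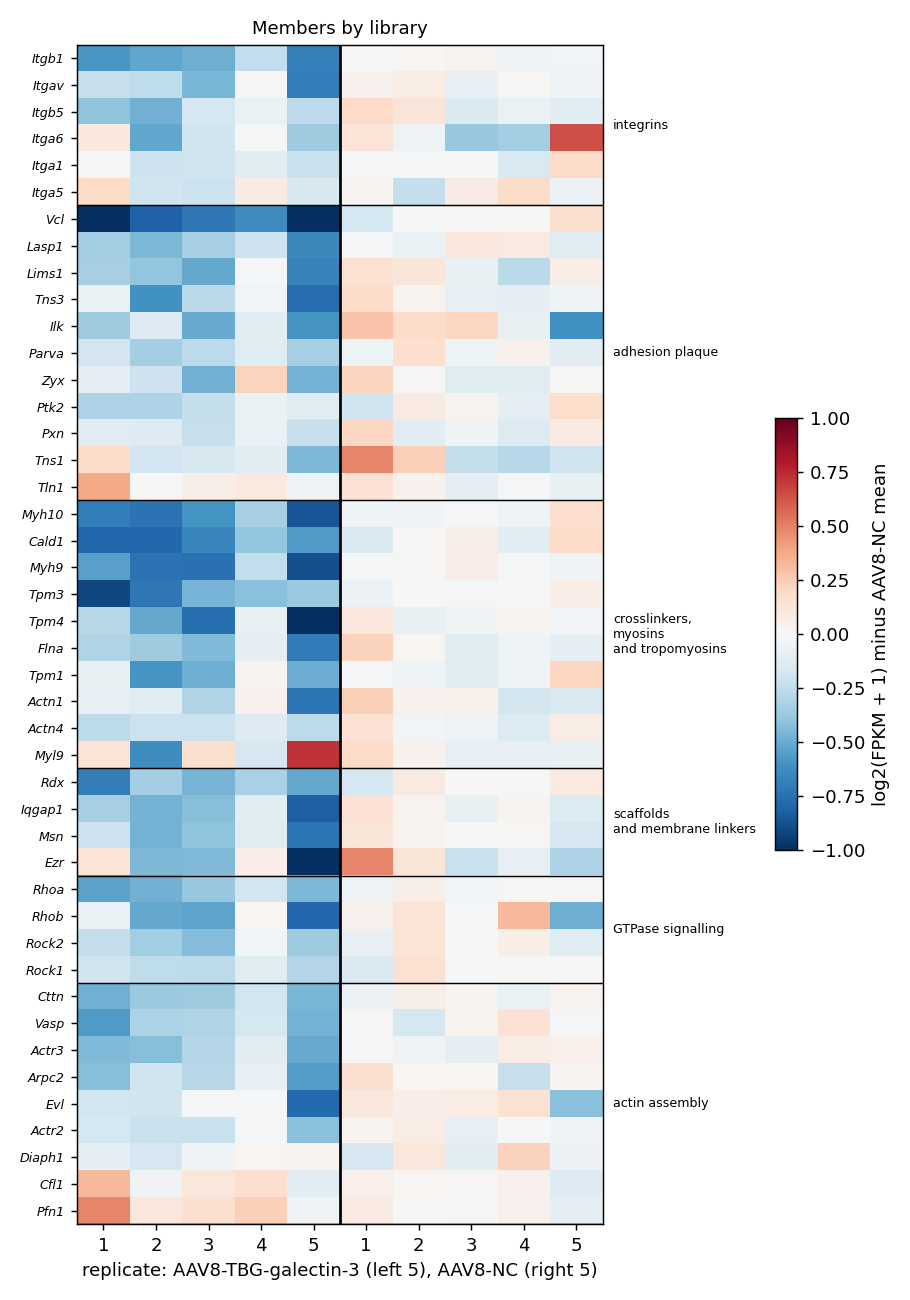
Each row is a tested member, grouped by role, and each column a mouse, with the 5 AAV8-TBG-galectin-3 livers on the left and the 5 AAV8-NC livers on the right. The colour gives log2(FPKM + 1) minus the mean of the AAV8-NC livers, cut at 1 in either direction. Most rows are blue on the left, palest in mouse 4 and darkest in mouse 5, and the rows of Tln1, Cfl1 and Pfn1 are not.

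Of the integrins, Itgb1, which encodes the beta subunit shared by most matrix-binding integrins, had 28.1, 29.4, 30.1, 35.9 and 26.4 FPKM in AAV8-TBG-galectin-3 livers, against 42.8, 43.3, 43.7, 41.7 and 41.8 FPKM in AAV8-NC livers. The AAV8-NC livers lay within a narrow band, and even the highest AAV8-TBG-galectin-3 liver, mouse 4, stayed below it. Itgb1 fell to a mean of 30.0 ± 3.62 FPKM, against 42.7 ± 0.909 FPKM in AAV8-NC livers (SD, n = 5 each; log2 fold change -0.50, SE 0.08, limma adjusted p = 0.00852). It was the single integrin of the 6 tested that passed, where 9.65% of all tested genes were lower.

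Itgb5, a beta subunit that pairs with the alpha v chain, had 28.7, 27.1, 33.6, 36.4 and 31.6 FPKM in AAV8-TBG-galectin-3 livers, against 43.7, 41.8, 34.4, 36.4 and 35.4 FPKM in AAV8-NC livers. Its groups overlapped, with AAV8-TBG-galectin-3 mouse 4 among the lower AAV8-NC livers (log2 fold change -0.28, adjusted p = 0.0763 by limma). Itgav, which encodes that alpha v chain, averaged 2.14 ± 0.560 and 2.89 ± 0.171 FPKM in the same order of groups (adjusted p = 0.0730). Itga5, the alpha subunit of the fibronectin receptor, averaged 10.4 ± 1.51 FPKM in AAV8-TBG-galectin-3 livers and 10.8 ± 1.27 FPKM in AAV8-NC livers, with a 95% interval of the log2 fold change from -0.29 to 0.17. The collagen-binding subunit Itga1 (log2 fold change -0.15) and the laminin-binding subunit Itga6 (-0.20) stood at 1.44 and 0.557 FPKM over all 10 livers. The alpha subunits were thus all at lower FPKM than Itgb1, and their intervals reached 0 except that of Itgav.

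Among the proteins of the adhesion plaque, Vcl encodes vinculin, which binds talin and actin and strengthens adhesions under load. Vcl had 1.01, 1.51, 1.68, 1.86 and 1.17 FPKM in AAV8-TBG-galectin-3 livers, against 2.89, 3.40, 3.43, 3.41 and 3.92 FPKM in AAV8-NC livers. The highest liver of the first group lay about 1 FPKM unit below the lowest of the second. Vcl fell to 1.45 ± 0.353 FPKM, against 3.41 ± 0.364 FPKM in AAV8-NC livers (SD, n = 5 each), 0.424 times the AAV8-NC mean, and the log2 fold change was -0.86 (SE 0.11, limma adjusted p = 0.00518). Vcl was called in each of the 12 alternative settings and each of the 10 fits without 1 library, with adjusted p of at most 0.0232.

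The sequence before the start of Vcl held a CArG box, the binding element of serum response factor (SRF), a regulator of many actin cytoskeleton genes. In the 250 bases before the annotated start, taken from the RefSeq promoter table of build GRCm38.p6 for the 37 members it holds, this element was found in 2 members, Vcl and Myl9, or 5.41%, against 1.62% of 27025 genes. Both stretches are shown because the element is shared while the fold changes of the genes are not; capitals mark the box, and both are given on the plus strand, which is the strand of the genes.
Vcl, chr14:20929148-20929205: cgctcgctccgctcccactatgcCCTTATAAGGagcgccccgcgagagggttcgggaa
Myl9, chr2:156775278-156775337: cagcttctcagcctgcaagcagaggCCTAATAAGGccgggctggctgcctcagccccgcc
The box lies at bases -227 to -218 in Vcl and -161 to -152 in Myl9, counted from the base before the start. Myl9, which encodes a regulatory light chain of myosin II found in contractile cells, had 2.05, 0.805, 2.10, 1.47 and 3.60 FPKM in AAV8-TBG-galectin-3 livers, against 2.17, 1.87, 1.63, 1.63 and 1.64 FPKM in AAV8-NC livers. Its AAV8-TBG-galectin-3 livers spread over both sides of the AAV8-NC range (log2 fold change 0.05, 95% interval -0.39 to 0.48, limma adjusted p = 0.890). The letters GGAATG, the core of the element bound by TEAD factors, were found on either strand in 10 of the 37 members (27.0%, against 14.4% of all genes). They were present in 5 of the 15 members with a window that were called lower (33.3%) and in 5 of 22 that were not (22.7%). Of other letters searched in the same way, GGGCGG was found in 29 of the 37 members (78.4%, against 35.4% of all genes). TATAAA was found in 3 (8.11%, against 14.3%). The windows of members thus differed from those of all genes in other letters too. A match of letters is a description and not a site of binding.

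Lasp1, which encodes a LIM and SH3 domain protein of adhesions and actin, had 21.0, 19.5, 21.2, 23.2 and 16.9 FPKM in AAV8-TBG-galectin-3 livers, against 26.6, 25.8, 29.3, 28.8 and 24.8 FPKM in AAV8-NC livers (log2 fold change -0.40, SE 0.09, limma adjusted p = 0.0172). The groups did not overlap. Parva, which encodes parvin alpha, had 5.37, 4.75, 5.07, 5.69 and 4.79 FPKM in AAV8-TBG-galectin-3 livers and 6.05, 7.15, 6.00, 6.5 and 5.73 FPKM in AAV8-NC livers (log2 fold change -0.25, adjusted p = 0.0457 by limma). Highest and lowest livers of the groups nearly met, and the call was lost in 8 of the 10 fits without 1 library, with adjusted p from 0.0626 to 0.111; those fits left out AAV8-TBG-galectin-3 mice 1, 2, 3 or 5 or AAV8-NC mice 1, 2, 3 or 4. Removal of the length trend ended the call of Parva too (adjusted p = 0.178). Parvin forms a complex with integrin-linked kinase and PINCH. Ilk, the kinase, averaged 5.62 ± 0.991 FPKM in AAV8-TBG-galectin-3 livers and 7.49 ± 1.88 FPKM in AAV8-NC livers (log2 fold change -0.34, adjusted p = 0.179), and Lims1, the PINCH gene, averaged 4.32 ± 0.929 and 5.90 ± 0.793 FPKM in the same order (log2 fold change -0.39, adjusted p = 0.0531).

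The other tested genes of the plaque did not pass. Tln1, which encodes talin 1, the direct link between integrin tails and actin, had 18.2, 13.7, 14.4, 14.8 and 13.3 FPKM in AAV8-TBG-galectin-3 livers, against 15.3, 14.2, 12.9, 13.6 and 13.0 FPKM in AAV8-NC livers. The groups overlapped in 4 of the 5 AAV8-TBG-galectin-3 livers, and mouse 1 lay above every AAV8-NC liver (log2 fold change 0.09, 95% interval -0.10 to 0.29, limma adjusted p = 0.486). At 14.3 FPKM over all livers, Tln1 was more abundant than Vcl, at 2.43 FPKM. Zyx, a sensor of tension on actin bundles (-0.21), the scaffold gene Pxn (-0.15), the focal adhesion kinase gene Ptk2 (-0.21), and the tensin genes Tns1 (-0.14) and Tns3 (-0.35) had negative log2 fold changes, with limma adjusted p between 0.108 and 0.565.

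**Figure D2:**
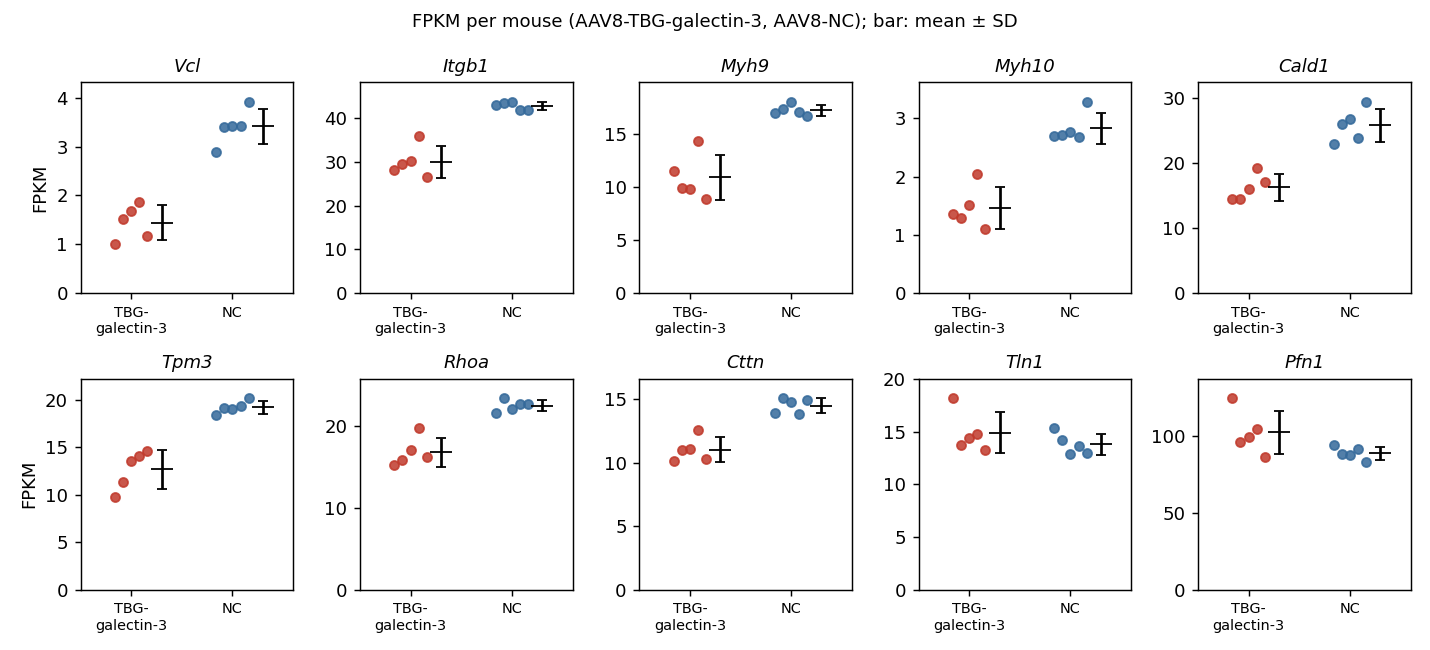
FPKM of 10 members in each mouse, with axes that start at 0, AAV8-TBG-galectin-3 (red) on the left and AAV8-NC (blue) on the right of each panel; the bar is the mean ± SD of 5 mice. Groups are separate in the panels of Vcl, Itgb1, Myh9, Myh10, Cald1, Tpm3, Rhoa and Cttn, and overlap in those of Tln1 and Pfn1.

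Of the 10 tested crosslinkers, myosins and tropomyosins, 6 were called lower, with a median log2 fold change of -0.45 over the 10. With the length trend removed, 5 of the 10 were lower. Of all genes, 9.65% were lower before that step and 5.46% after it. Myh9, the heavy chain of nonmuscle myosin IIA, had 11.5, 9.97, 9.89, 14.4 and 8.92 FPKM in AAV8-TBG-galectin-3 livers, against 17.0, 17.4, 18.1, 17.1 and 16.7 FPKM in AAV8-NC livers. Myh10, the heavy chain of nonmuscle myosin IIB, had 1.36, 1.29, 1.52, 2.04 and 1.11 FPKM in AAV8-TBG-galectin-3 livers, against 2.70, 2.71, 2.76, 2.68 and 3.29 FPKM in AAV8-NC livers. In both genes mouse 4 was the highest and mouse 5 the lowest of the AAV8-TBG-galectin-3 livers, and the groups were separate. Myh9 fell to 10.9 ± 2.16 FPKM, against 17.3 ± 0.521 FPKM in AAV8-NC livers, and Myh10 to 1.47 ± 0.355 FPKM, against 2.83 ± 0.261 FPKM (SD, n = 5 each). The log2 fold changes were -0.63 (SE 0.11) and -0.64 (SE 0.10), with limma adjusted p of 0.00941 and 0.00778.

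Cald1 encodes caldesmon, which binds actin, tropomyosin and myosin and restrains contraction. It had 14.5, 14.5, 16, 19.3 and 17.1 FPKM in AAV8-TBG-galectin-3 livers, against 23.0, 26.0, 26.8, 23.9 and 29.5 FPKM in AAV8-NC livers (log2 fold change -0.64, SE 0.10, limma adjusted p = 0.00702). Tropomyosins lie along the actin filament and decide which proteins reach it. Tpm3 had 9.75, 11.3, 13.6, 14.1 and 14.6 FPKM in AAV8-TBG-galectin-3 livers, against 18.4, 19.1, 19.0, 19.3 and 20.2 FPKM in AAV8-NC livers (log2 fold change -0.58, SE 0.10, adjusted p = 0.00944). Here the lowest AAV8-TBG-galectin-3 liver was mouse 1 and the highest mouse 5, unlike most members. The table also lists Tpm3-rs7, a related sequence, and reads shared between such copies make the level of Tpm3 uncertain.

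Tpm4 had 11.1, 9.29, 7.70, 12.9 and 6.31 FPKM in AAV8-TBG-galectin-3 livers, against 14.8, 12.9, 13.3, 13.9 and 13.4 FPKM in AAV8-NC livers (log2 fold change -0.52, SE 0.15, limma adjusted p = 0.0360). Mouse 4 of the first group and mouse 2 of the second met at the edge. The Tpm4 call was lost in 7 fits, those without AAV8-TBG-galectin-3 mice 2, 3 or 5 or AAV8-NC mice 1, 2, 3 or 4 (adjusted p from 0.0596 to 0.0795). Tpm1 averaged 11.7 ± 2.52 FPKM in AAV8-TBG-galectin-3 livers and 14.7 ± 1.44 FPKM in AAV8-NC livers (log2 fold change -0.32, adjusted p = 0.0974).

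Flna, which encodes filamin A, a crosslinker of actin into networks, had 7.46, 7.15, 6.68, 8.79 and 5.43 FPKM in AAV8-TBG-galectin-3 livers, against 11.2, 9.55, 8.65, 9.09 and 8.77 FPKM in AAV8-NC livers. The groups overlapped in mouse 4 of the first group and mice 3 and 5 of the second, by little. The log2 fold change was -0.38 (SE 0.11, limma adjusted p = 0.0402), and adjusted p lay between 0.0610 and 0.0828 in the 8 fits without AAV8-TBG-galectin-3 mice 1, 2, 3 or 5 or AAV8-NC mice 1, 2, 3 or 4. With the length trend removed, Flna was not called (adjusted p = 0.0764). The alpha-actinins bundle actin filaments: Actn4 averaged 21.0 ± 0.865 FPKM in AAV8-TBG-galectin-3 livers and 24.6 ± 1.95 FPKM in AAV8-NC livers (log2 fold change -0.22, adjusted p = 0.0572), and Actn1 averaged 5.00 ± 1.14 and 5.98 ± 0.833 FPKM in the same order (-0.23, 0.263).

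Of the 4 scaffold and membrane linker genes, 3 were called lower, where 9.65% of all tested genes were lower. With the length trend removed, 1 of the 4 was lower, where 5.46% of all genes were. Ezrin, radixin and moesin tie the plasma membrane to cortical actin, and radixin is the member of the family known from the bile canaliculi of hepatocytes. Rdx had 23.8, 30.7, 28.1, 31.1 and 27.1 FPKM in AAV8-TBG-galectin-3 livers, against 34.7, 41.8, 39.0, 38.7 and 41.9 FPKM in AAV8-NC livers (log2 fold change -0.47, SE 0.09, adjusted p = 0.0102 by limma). Msn, the moesin gene, had 8.32, 6.75, 7.14, 8.87 and 5.49 FPKM in AAV8-TBG-galectin-3 livers, against 10.7, 9.98, 9.73, 9.84 and 8.55 FPKM in AAV8-NC livers (log2 fold change -0.38, SE 0.11, adjusted p = 0.0376). Rdx was the most abundant of the family at 33.7 FPKM over all livers and was separate between groups, while the groups overlapped for Msn, at 8.54 FPKM. Ezr, the ezrin gene, had 5.05, 3.03, 3.06, 4.76 and 1.77 FPKM in AAV8-TBG-galectin-3 livers, against 6.74, 4.98, 3.72, 4.22 and 3.46 FPKM in AAV8-NC livers (log2 fold change -0.34, adjusted p = 0.293), with the widest relative spread of the family in both groups. Iqgap1, a scaffold for the GTPases CDC42 and RAC1, had 2.25, 1.94, 2.05, 2.79 and 1.32 FPKM in AAV8-TBG-galectin-3 livers, against 3.52, 3.19, 2.88, 3.17 and 2.72 FPKM in AAV8-NC livers (log2 fold change -0.43, SE 0.12, adjusted p = 0.0316). The calls of both Msn and Iqgap1 were lost without AAV8-TBG-galectin-3 mice 2 or 3 or AAV8-NC mice 1, 2, 3 or 4, and that of Msn also without AAV8-TBG-galectin-3 mouse 5; adjusted p lay between 0.0650 and 0.0805 for Msn and between 0.0577 and 0.0691 for Iqgap1 in those fits. Neither was called with the length trend removed (adjusted p of 0.0568 for Msn and 0.0529 for Iqgap1).

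Rhoa, which encodes the GTPase that turns on myosin II and formins, had 15.2, 15.8, 17.0, 19.7 and 16.2 FPKM in AAV8-TBG-galectin-3 livers, against 21.6, 23.4, 22, 22.7 and 22.6 FPKM in AAV8-NC livers. The groups were separate, with the AAV8-NC livers within a band of 2 FPKM units. Rhoa fell to 16.8 ± 1.77 FPKM, against 22.5 ± 0.676 FPKM in AAV8-NC livers (SD, n = 5 each; log2 fold change -0.41, SE 0.08, limma adjusted p = 0.0102). The kinases that RhoA turns on lay close to the threshold: Rock1 averaged 1.82 ± 0.134 FPKM in AAV8-TBG-galectin-3 livers and 2.30 ± 0.239 FPKM in AAV8-NC livers (log2 fold change -0.22, adjusted p = 0.0543). Rock2 averaged 2.91 ± 0.441 and 3.74 ± 0.343 FPKM in the same order (log2 fold change -0.28, adjusted p = 0.0509). Rhob, an endosomal relative of RhoA induced by stress, had 31.2, 22.7, 22.4, 33.3 and 18.6 FPKM in AAV8-TBG-galectin-3 livers, against 33.8, 36.1, 32.4, 41.3 and 23.1 FPKM in AAV8-NC livers, and its groups overlapped (log2 fold change -0.38, adjusted p = 0.162).

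The 9 tested genes of actin assembly fell on both sides. Cttn, which encodes cortactin, a stabiliser of branched actin, had 10.1, 11, 11.1, 12.6 and 10.3 FPKM in AAV8-TBG-galectin-3 livers, against 13.9, 15.1, 14.8, 13.8 and 14.9 FPKM in AAV8-NC livers (log2 fold change -0.37, SE 0.07, limma adjusted p = 0.0108). Vasp, a filament elongator at adhesions, had 7.48, 9.10, 9.22, 10.1 and 8.05 FPKM in AAV8-TBG-galectin-3 livers, against 11.7, 10.1, 11.9, 12.9 and 11.4 FPKM in AAV8-NC livers (log2 fold change -0.37, SE 0.09, adjusted p = 0.0225). The groups were separate for Cttn and met for Vasp in mouse 4 of the first group and mouse 2 of the second. Without AAV8-TBG-galectin-3 mouse 5 or AAV8-NC mice 3 or 4, the adjusted p of Vasp was 0.0502 to 0.0542.

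Actr3 encodes the ARP3 subunit of the Arp2/3 complex, which starts branches on actin filaments. It had 22.2, 22.5, 24.7, 28.2 and 21.2 FPKM in AAV8-TBG-galectin-3 livers, against 30.6, 29.7, 28.4, 32.2 and 31.7 FPKM in AAV8-NC livers (log2 fold change -0.35, SE 0.08, limma adjusted p = 0.0204). Mouse 4 of the first group came within 1 FPKM unit of mouse 3 of the second. The other subunits on the list did not pass: Actr2 averaged 20.7 ± 2.18 FPKM in AAV8-TBG-galectin-3 livers and 24 ± 1.03 FPKM in AAV8-NC livers (-0.21, adjusted p = 0.0932), and Arpc2 averaged 47.6 ± 6.19 and 58.9 ± 5.68 FPKM in the same order (-0.31, 0.0614). Pfn1, which encodes profilin 1, the carrier of actin monomers, had 125, 96.4, 99.7, 105 and 86.7 FPKM in AAV8-TBG-galectin-3 livers, against 94.1, 88.5, 87.6, 91.6 and 83.1 FPKM in AAV8-NC livers. It was the most abundant member and lay above the AAV8-NC mean in 4 of 5 AAV8-TBG-galectin-3 livers, but the groups overlapped (log2 fold change 0.19, 95% interval -0.02 to 0.40, adjusted p = 0.180). Cfl1, the filament-severing cofilin 1 (0.09, 0.486), Diaph1, the formin driven by RhoA (-0.05, 0.736), and Evl, a relative of VASP (-0.24, 0.309), did not pass either, each given by its log2 fold change and its adjusted p.

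**Figure D3:**
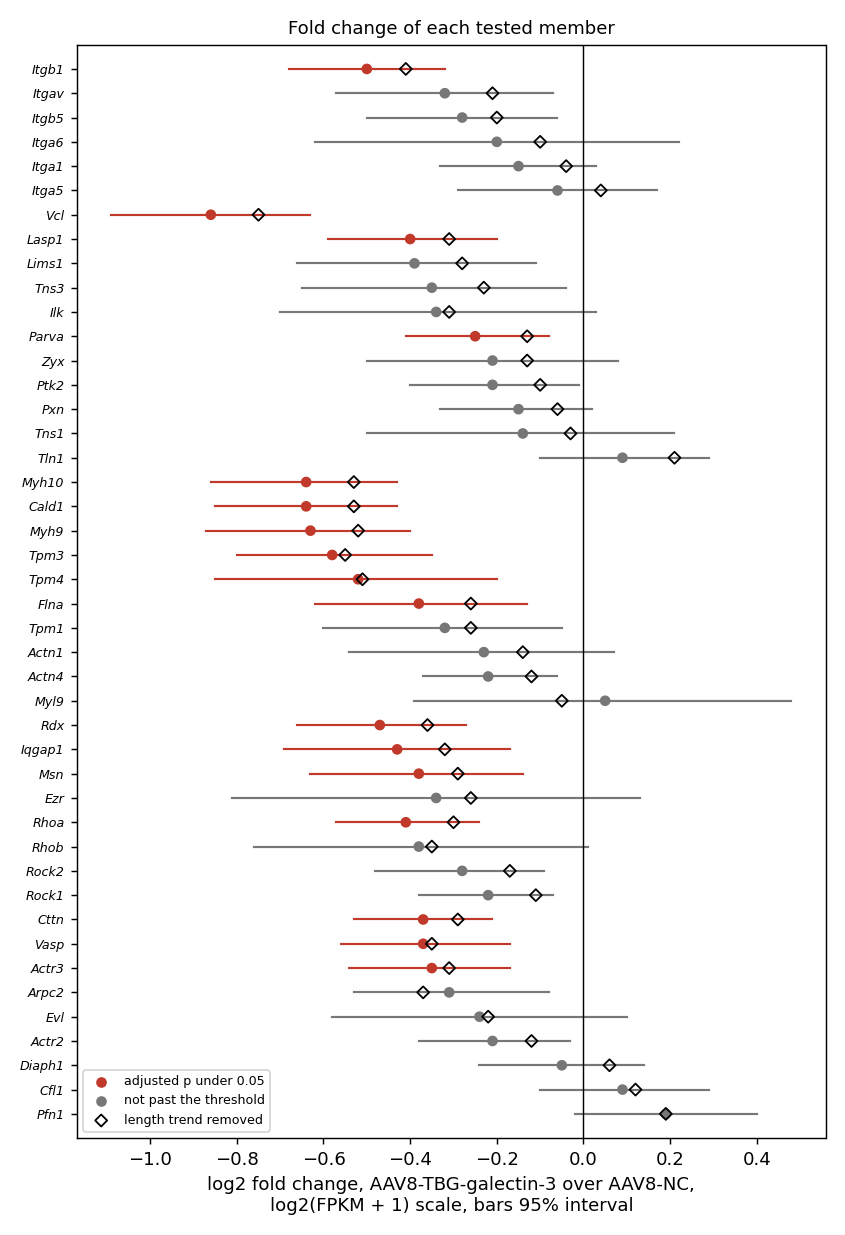
Log2 fold change of each tested member, AAV8-TBG-galectin-3 over AAV8-NC, with its 95% interval from limma; red marks the 17 members with an adjusted p under 0.05, and open diamonds the value after the transcript length trend of each library was removed. Diamonds lie to the right of the points for most members and to the left for Arpc2 and Myl9.

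Transcript length moved with the groups and is a possible source of part of the shift of these genes. Per doubling of the longest annotated transcript, the departure of log2 values from gene means was -0.059 to -0.007 in AAV8-TBG-galectin-3 libraries and 0.019 to 0.046 in AAV8-NC libraries, so the groups did not overlap. Members were longer than other genes, with a median of 3859 nt against 2970 nt for all tested genes. From the shortest to the longest of 5 classes of equal size, the median log2 fold change of all tested genes was 0.14, 0.00, -0.06, -0.09 and -0.11. The members of the same classes had medians of -0.13 (2 members), -0.36 (8), -0.33 (6), -0.23 (13) and -0.32 (15). Within the list, length and fold change were nearly unrelated (Spearman correlation -0.07 across 44 genes, against -0.32 across 13187 genes with a length; genes are not independent replicates). Long members lay at both ends: Vcl, with 5267 nt, and Myh9, with 7433 nt, had fold changes of -0.86 and -0.63, while Tln1, with 8393 nt, and Tns1, with 9966 nt, had 0.09 and -0.14. Among short members, Tpm3 (2374 nt) had -0.58 and Pfn1 (1997 nt) 0.19. Tested members ran from 1128 nt (Myl9) to 10967 nt (Itga1). Most were in the longer classes (13 and 15) and few in the shortest (2), so the correlation within the list says little of the shortest genes. The part of length in the shift of the members was not tested.

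With the length trend of each library removed, 14 of the 44 members were lower and 0 higher, against 5.46% lower and 6.78% higher of 13187 genes, and the median of the members was -0.25 against 0.0045 for all genes. Of the 17 members called without that step, 13 kept their call. The others were Flna (log2 fold change -0.26, limma adjusted p = 0.0764), Iqgap1 (-0.32, 0.0529), Msn (-0.29, 0.0568) and Parva (-0.13, 0.178), and Arpc2 was called in addition (-0.37, 0.0400). Vcl stood at -0.75 (0.00855), Myh10 at -0.53 (0.00955), Myh9 at -0.52 (0.0110), Itgb1 at -0.41 (0.0110) and Rhoa at -0.30 (0.0241). Cald1 stood at -0.53 (0.0119), Tpm3 at -0.55 (0.0147), Tpm4 at -0.51 (0.0337), Rdx at -0.36 (0.0267) and Lasp1 at -0.31 (0.0290). The actin assembly genes Cttn, Vasp and Actr3 stood at -0.29 (0.0212), -0.35 (0.0310) and -0.31 (0.0263). For Itga5 and Diaph1 the sign turned to positive, at 0.04 and 0.06, and for Myl9 to negative, at -0.05. Before the trend was removed, members called lower numbered 0 of 2, 3 of 8, 2 of 6, 5 of 13 and 7 of 15 in the classes from the shortest to the longest, where 2.08%, 5.65%, 10.5%, 14.2% and 16.6% of all genes of those classes were lower.

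**Figure D4:**
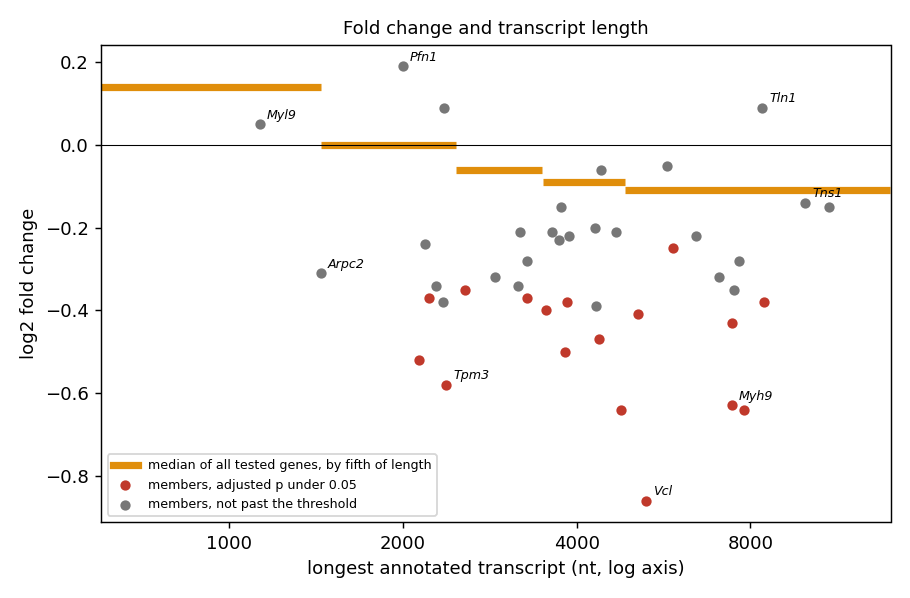
Log2 fold change of each tested member against the length of its longest annotated transcript (nt, log axis), red where the adjusted p was under 0.05; orange bars give the median of all tested genes in each of 5 length classes, drawn within the limits of the axis. The bars step down from 0.14 to -0.11, and most members lie below the bar of their own class.

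The 5 AAV8-TBG-galectin-3 livers did not shift alike. Mouse 4 was the highest of its group in 33 of the 44 tested members and in 16 of the 17 called lower, and mouse 5 was the lowest in 25 and 9. The median departure of the tested members from their gene means was -0.08, -0.20, -0.17, 0.07 and -0.32 in AAV8-TBG-galectin-3 mice 1 to 5 and 0.23, 0.21, 0.11, 0.13 and 0.12 in AAV8-NC mice 1 to 5, on the log2 scale. Mouse 4 also had the length slope nearest 0 of its group (-0.007) and mouse 5 the steepest (-0.059). The part of length in the order of these libraries was not tested.

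**Figure D5:**
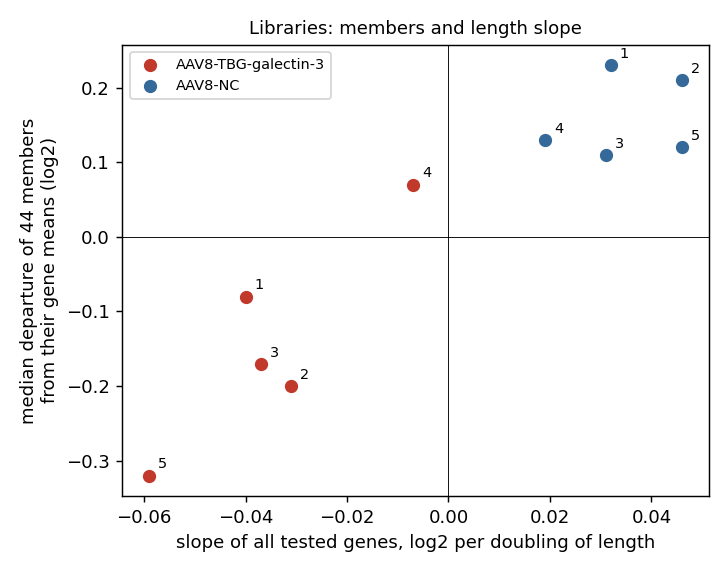
Each point is a library, numbered by mouse: the horizontal axis is the slope of all tested genes per doubling of transcript length, and the vertical axis the median departure of the 44 tested members from their gene means, both in log2 units. AAV8-TBG-galectin-3 mouse 4 lies closest to the AAV8-NC libraries and mouse 5 farthest from them.

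Many of these genes are expressed more in the nonparenchymal cells of the liver than in hepatocytes. Markers of Kupffer cells and macrophages summed to 289 to 645 FPKM in AAV8-TBG-galectin-3 livers and 537 to 833 FPKM in AAV8-NC livers, with 2 of 15 tested markers lower and 0 higher. Beside this count and those of the lists below, 9.65% of all tested genes were lower and 7.13% higher. Stellate cell and myofibroblast markers summed to 122 to 202 FPKM in AAV8-TBG-galectin-3 livers and 170 to 199 FPKM in AAV8-NC livers (3 of 16 lower, 0 higher), sinusoidal endothelial markers to 22.9 to 31.1 and 26.1 to 46.7 FPKM in the same order (2 of 12 lower, 0 higher), and cholangiocyte markers to 122 to 435 and 264 to 492 FPKM (0 of 8 lower or higher). Smooth muscle markers summed to 7.03 to 13.4 FPKM in AAV8-TBG-galectin-3 livers and 10.5 to 15.6 FPKM in AAV8-NC livers (0 of 3 lower or higher), and the lists of T and NK cells, B and plasma cells and neutrophils, at 13.2 FPKM or less, had 0 called markers among 5, 2 and 3 tested. Hepatocyte markers summed to 34600 to 43700 and 38500 to 43400 FPKM, with 3 of 10 lower and 1 higher. The median log2 fold change of the tested markers was -0.40 for macrophages, -0.43 for cholangiocytes, -0.29 for sinusoidal endothelium, -0.22 for stellate cells and -0.17 for smooth muscle, beside -0.32 for the members. It was 0.10 for hepatocytes, -0.06 for T and NK cells, -0.07 for B and plasma cells and 0.12 for neutrophils. The groups overlapped in the sum of every one of these lists, and 0 markers were at 0 in all libraries. Spp1 is in both the macrophage and the cholangiocyte list, and Acta2 in both the stellate cell and the smooth muscle list. The values of those lists are therefore not independent. Of the AAV8-TBG-galectin-3 livers, mouse 4 had the highest sum for stellate cell (202 FPKM), macrophage (645), sinusoidal endothelial (31.1) and smooth muscle (13.4) markers. Mouse 1 had it for cholangiocyte (435), T and NK, B and plasma and neutrophil markers, and mouse 5 for hepatocyte markers. Mouse 5 had the lowest sum for stellate cell (122), macrophage (289), cholangiocyte (122), T and NK, B and plasma and neutrophil markers. The lowest was mouse 3 for sinusoidal endothelial (22.9), mouse 2 for smooth muscle (7.03) and mouse 1 for hepatocyte markers. Of the 44 tested members, mouse 4 was highest in 33 and mouse 5 lowest in 25, not always in the same members. The part of cell makeup in the member values was not tested.

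Genes of the same pathways that are not members, 162 symbols in 4 lists written down by role, were counted in the same fit; these lists too were drawn up with earlier results known. Of the 141 tested, 39 were lower and 0 higher, where 9.65% of all tested genes were lower and 7.13% higher. Once the length trend was removed, 25 were lower and 2 higher, where 5.46% of all genes were lower and 6.78% higher. The same shares of all genes stand beside the counts of each list below. Among actins, myosins and actin-binding proteins, 17 of 52 were lower, with a median log2 fold change of -0.21; with the length trend removed, 11 were lower and 1 higher, with a median of -0.17. The genes of both alpha subunits of the protein that caps filament ends fell: Capza2 averaged 7.99 ± 0.813 FPKM in AAV8-TBG-galectin-3 livers and 12.6 ± 1.44 FPKM in AAV8-NC livers (-0.60, limma adjusted p = 0.00778), and Capza1 averaged 7.52 ± 1.15 and 11.2 ± 1.05 FPKM in the same order (-0.52, 0.0108). Wdr1, a helper of cofilin, fell to 5.42 ± 0.651 FPKM, against 7.60 ± 0.397 FPKM in AAV8-NC livers, and Coro1c, a coronin, to 2.73 ± 0.383 FPKM, against 4.05 ± 0.344 FPKM. The cytoplasmic actins were looked at after their values were seen: Actg1, gamma actin, fell to 76.5 ± 17.6 FPKM, against 116 ± 11 FPKM in AAV8-NC livers (-0.62, adjusted p = 0.0162), while Actb, beta actin, averaged 246 ± 31.9 FPKM in AAV8-TBG-galectin-3 livers and 238 ± 16.5 FPKM in AAV8-NC livers (0.04, adjusted p = 0.804).

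Of the 35 tested genes of small GTPases of the cytoskeleton and their regulators, 11 were lower, with a median log2 fold change of -0.24. Arhgdib, an inhibitor of such GTPases found mainly in blood cells, fell to 5.39 ± 1.12 FPKM, against 10.2 ± 0.529 FPKM in AAV8-NC livers (-0.82, limma adjusted p = 0.00658). Nckap1 and Cyfip1, subunits of the WAVE complex that turns on Arp2/3, fell to 18.9 ± 1.47 and 3.54 ± 0.378 FPKM, against 26.9 ± 2.86 and 4.85 ± 0.167 FPKM in AAV8-NC livers. Cdc42, a GTPase of cell polarity, fell to 52.8 ± 5.64 FPKM, against 71.9 ± 4.92 FPKM (-0.44, adjusted p = 0.0113). Of 34 tested integrins and adhesome partners, 7 were lower, with a median of -0.18. They included Itga9, an alpha subunit that pairs with the product of Itgb1, at 1.16 ± 0.0993 FPKM in AAV8-TBG-galectin-3 livers and 2.11 ± 0.246 FPKM in AAV8-NC livers, and Csrp1, a LIM protein that binds alpha-actinin and zyxin, at 6.42 ± 2.17 and 12.1 ± 0.845 FPKM in the same order. Kank1, a talin-binding protein, fell as well (-0.38, adjusted p = 0.02), but not with the length trend removed (-0.27, adjusted p = 0.0836), when 3 of the 34 were lower and the median was -0.10. Of the GTPase list, 9 were then lower and 1 higher, with a median of -0.15.

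The list of SRF, MRTF and YAP regulators and targets had 4 of 20 tested genes lower, with a median log2 fold change of -0.20. Mob1a, a partner of the Hippo pathway kinases (-0.44), the receptor kinase gene Axl (-0.54), Amotl1, an angiomotin relative (-0.30), and Ajuba, a LIM protein (-0.57), fell with limma adjusted p between 0.0144 and 0.0361. With the length trend removed, 2 of the 20 were lower and the median was -0.10; Amotl1 (-0.19, adjusted p = 0.101) and Ajuba (-0.49, adjusted p = 0.0526) were no longer called. Srf itself, looked at after its value was seen, averaged 6.60 ± 1.2 FPKM in AAV8-TBG-galectin-3 livers and 7.01 ± 1.02 FPKM in AAV8-NC livers (adjusted p = 0.679).

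The authors' deposited table, whose test the files do not name, had a q-value under 0.05 with a lower mean for 20 members and with a higher mean for 0, where 4.51% of its 29657 genes were lower by that rule. Shares of these 29657 genes include genes below the expression filter used here, which kept 13471, and are not on the same footing as the shares above. The 20 included all 17 called here, and in addition Rock1, Rock2 and Lims1, with q-values of 0.0218, 0.0325 and 0.0329 in the authors' deposited table. Only Vcl carried the mark of significance in the authors' deposited table, with a ratio of group means of 0.424 and a q-value of 3.57e-09, a mark that 0.803% of its genes carried in that direction.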

How the data were processed

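Liver RNA of 10 mice was sequenced, 5 per group, with groups and numbers from the sample titles. Libraries were made from poly(A) RNA with strands marked, per the labels' protocols; whether quantification used the strand is not stated there. The submitters' processing notes name cutadapt 1.9, HISAT2 2.0.4 and StringTie 1.3.4d, and a human build, GRCh38, while all 29657 identifiers are mouse Ensembl ones. The deposited table held FPKM per library, per the file headers, and the ratio of group means, its log2, a p-value and a q-value, as computed by the authors. At most 18.8% of low FPKM values were whole multiples of a common step (tolerance 0.02), so reads were not recovered and no count model was used. No sample column was left aside, and no libraries were identical.

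Genes with at least 0.5 FPKM in at least 5 libraries were kept (13471). Values were log2(FPKM + 1), fitted by limma 3.58.1 (R 4.3.3), with the variance trended on the mean, no covariates, two-sided, with Benjamini-Hochberg adjustment over all tested genes, called at 0.05. The fit was tested on simulated data. The longest GENCODE M21 transcript gave the length of 97.9% of tested genes, joined on Ensembl identifiers; its trend was removed per library with a natural spline of 4 degrees of freedom. That annotation may not be the one behind the FPKM values. The members and lists were chosen with earlier results of these data known. Values in every library are given for each called member and for some of each role that were not called; of each related list, the genes with the smallest adjusted p are named, up to 4; 1 such gene is not reported here. The labels name no batch that separates the libraries, and replicates are separate mice only as far as the titles say. Alternatives were other pseudocounts, filters, scalings, weights and variance moderation, a replicate block, the length trend, and leaving out each library.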

Additional observations from a re-analysis of the deposited data

Results flagged for a closer look

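One library stood far from the other 4 of its group, by its gap to the next library as a share of the whole range, in 4 of the 88 groups of values checked (tested members, log2(FPKM + 1) scale); chance gives about 1 in 20. The 4 are close to that share. All involve a library numbered 5, which is a different mouse in each group, and the shared number is not taken as a link. Evl stood at 3.55 FPKM in AAV8-TBG-galectin-3 mouse 5, where the others of its group held 5.78 to 6.74 FPKM, and at 4.83 FPKM in AAV8-NC mouse 5, where the others held 7.17 to 7.66 FPKM. AAV8-NC mouse 5 also held Cfl1 at 52.1 FPKM, below the 57.5 to 59.0 FPKM of its group, and Myh10 at 3.29 FPKM, above the 2.68 to 2.76 FPKM of its group.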

How the results depend on the processing

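The number of members called lower was 17 and stayed between 12 and 19 in 10 of the 12 alternative settings. It was 27 with array weights and 26 with equal FPKM sums. That scaling was chosen after seeing that the sums ran from 389533 to 422301 in AAV8-TBG-galectin-3 libraries and from 370845 to 391530 in AAV8-NC libraries. The share of all tested genes called lower moved too. It was 9.65% in the main fit, 15.2% with array weights, 14.5% with equal FPKM sums and 2.3% with no filter. Without 1 library, the members called lower ranged from 11 to 26, where 4.71% and 12.9% of all tested genes were lower. The number of members called higher was 0 in every setting and in every fit without 1 library. The median of the members ranged from -0.40 to -0.25 without 1 library, and relative to the median of all genes it lay between -0.35 and -0.24 throughout. Related genes called lower numbered 39, with 9.65% of all tested genes lower. They numbered 25 with the length trend removed (5.46% of all genes) and 22 with the replicate block and the length trend removed (5.16%). With the block alone they numbered 32 (7.32%), and with no filter 26 (2.3%). They rose to 58 with array weights (15.2%) and 54 with equal FPKM sums (14.5%), and were 37 to 39 in the other settings. Without 1 library they numbered 21 to 53, where 4.08% and 12.9% of all tested genes were lower. Related genes called higher numbered 0, but 1 with no filter, quantile normalization, the replicate block or array weights, 2 with median-of-ratios scaling or the length trend removed, and 3 with the block and the length trend removed. With the length trend removed, with or without the block, the Diaph1 log2 fold change turned to 0.0648, the Itga5 log2 fold change to 0.0449 and the Myl9 log2 fold change to -0.0496; that of Myl9 also turned to -0.0281 with equal FPKM sums. Without 1 library Diaph1 ranged from -0.0901 to 0.0094 and Myl9 from -0.12 to 0.21. None of these 3 genes was called in any of these settings, and the cause of the other changes was not tested.

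Both groups carry replicate numbers 1 to 5, but same-numbered libraries departed from their group means with correlations of -0.015 to 0.114, so the numbers are not taken as pairs. With the replicate block, 17 members were lower, 16 of them among the 17 called without it, and the median stayed at -0.32. Of all tested genes, 7.32% were then lower. With the block and the length trend removed, 16 members were lower, 15 of them among the 17, where 5.16% of all genes were lower. FPKM carries no read counts, so low members such as Itga6 and Tln2 have an error that is not known beyond the spread of mice.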
